A study of Mus musculus with 4 samples.

Results

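The subject is a group of 32 genes of the interferon response and of antigen presentation by MHC class I, read in mouse intestinal organoids that kept or had lost the ubiquitin ligases Cbl and Cblb. Members were taken by symbol from the feature list, which holds 31040 genes, and all 32 were found under 1 identifier each. They are 5 sensors of foreign nucleic acid and their adaptor, 4 transcription factors, 11 induced effectors, 1 chemokine, 3 subunits of the immunoproteasome, 3 peptide loading genes, 3 class I chains with their activator Nlrc5, and the class II chaperone Cd74. Organoids were grown from intestinal crypts of 2 mice aged 10 weeks that carried Cbl flox/flox, Cbl-b flox/flox and R26Cre ERT2, an inducible Cre recombinase expressed from a ubiquitously active locus. Cultures kept for 3 days with 4-hydroxytamoxifen at 400 nM are called knockout here, and cultures without it control. Each group has n = 2 libraries, called control 1, control 2, knockout 1 and knockout 2 after the numbers in their titles. Libraries of the same number were read as coming from the same mouse, because their deposited names share a tag. The titles themselves give only the number. All 4 libraries carry the floxed alleles and the Cre, and no wild-type library given the drug is among them, so effects of the drug and of the deletion cannot be told apart.

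Interferons bind receptors that signal through JAK kinases to STAT proteins and IRF9, which switch on genes that carry the interferon-stimulated response element. Sensors such as RIG-I (Ddx58), MDA5 (Ifih1) and the STING adaptor (Tmem173) start interferon production when they meet foreign or misplaced nucleic acid. The immunoproteasome cuts proteins into peptides, TAP1 and TAP2 carry the peptides into the endoplasmic reticulum, tapasin helps load them, and the class I heavy chains with beta-2-microglobulin show them to T cells. In the gut, epithelial cells answer interferon directly, and crypt cells are known to keep some of these genes on without an infection.

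The promoters of the members were searched for the letters of that element. The letters GAAA, any 2 bases and GAAA again, the core of an interferon-stimulated response element, were searched on both strands from 250 bases before to 50 bases after each RefSeq start (GRCm38.p6), and overlapping matches were counted. Promoters of 24 members were matched by symbol, and 12 of them held the motif, against 1079 of 27025 genes with a window of that length (3.99%). A match describes letters and is not a binding site. Below are the windows of 6 members described later, with 25 bases on each side. They are written 5′ to 3′ along the gene's strand, and capitals mark the motif or its reverse complement.
B2m, chr2:122147523-122147582, plus strand: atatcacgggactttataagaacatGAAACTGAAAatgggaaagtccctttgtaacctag
Isg15, chr4:156200850-156200921, minus strand: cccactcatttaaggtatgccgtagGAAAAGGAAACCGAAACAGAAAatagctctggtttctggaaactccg
Cxcl10, chr5:92349068-92349127, minus strand: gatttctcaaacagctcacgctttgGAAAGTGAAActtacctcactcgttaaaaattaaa
Bst2, chr8:71537562-71537627, minus strand: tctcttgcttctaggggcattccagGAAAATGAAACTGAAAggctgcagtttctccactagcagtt
Ifit3, chr19:34583348-34583441, plus strand: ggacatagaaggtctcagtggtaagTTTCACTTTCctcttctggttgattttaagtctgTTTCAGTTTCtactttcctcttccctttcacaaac
Ifit1, chr19:34640760-34640838, plus strand: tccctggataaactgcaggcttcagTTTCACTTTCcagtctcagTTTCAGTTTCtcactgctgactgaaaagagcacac
The window of Isg15 holds 3 overlapping matches, those of Bst2, Ifit3 and Ifit1 hold 2 each, and those of B2m and Cxcl10 hold 1. Among the members below whose windows held no match to these letters were H2-K1, H2-D1, Irf1, Irf7, Irf9, Psmb8, Psmb9, Psmb10, Tap1 and Tapbp. A second pattern (GAS: TTC, any 3 bases and GAA) was matched in 6 of the 24 members, against 9.55% of genes. These were Bst2, Ifit2, Ifitm3, Irf1, Oas1a and Psmb8.

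Between 709 and 1983 barcodes per library were deposited, and 682 to 1902 cells were retained with medians of 16071 to 27457.5 UMIs (1 UMI stands for 1 captured RNA molecule) per cell. Both knockout libraries had lower medians than both controls. Cbl was at 17.0 and 19.9 CPM (the usual depth-scaled UMI count) in controls 1 and 2, and at 12.3 and 10.5 in knockouts 1 and 2, and Cblb was at 8.51, 3.93, 3.35 and 0.464 in that order. Both genes were lower in each knockout than in the control of the same number, though for these counts it is not known which bases lie outside the deleted part. Markers of immune cells, the other usual source of these genes, summed to 2.02 to 3.11 CPM over 15 genes, with 7 to 10 of them at 0 UMIs and Cd3e, Cd3g, Adgre1, Itgax, Tyrobp and Nkg7 at 0 in every library. Cells were clustered without the members, and clusters were named from marker lists as cycling-like, S-phase-like, enterocyte-like, goblet-like, Paneth-like, enteroendocrine-like, fetal-like and tuft-like. No cluster met the limits for a stem-like name. Enterocyte-like cells made up 20.8% and 38.4% of the cells of controls 1 and 2 but 12.3% and 15.2% of those of knockouts 1 and 2 (239, 262, 200 and 290 cells), so their share was lower in both knockouts.

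**Figure D1:**
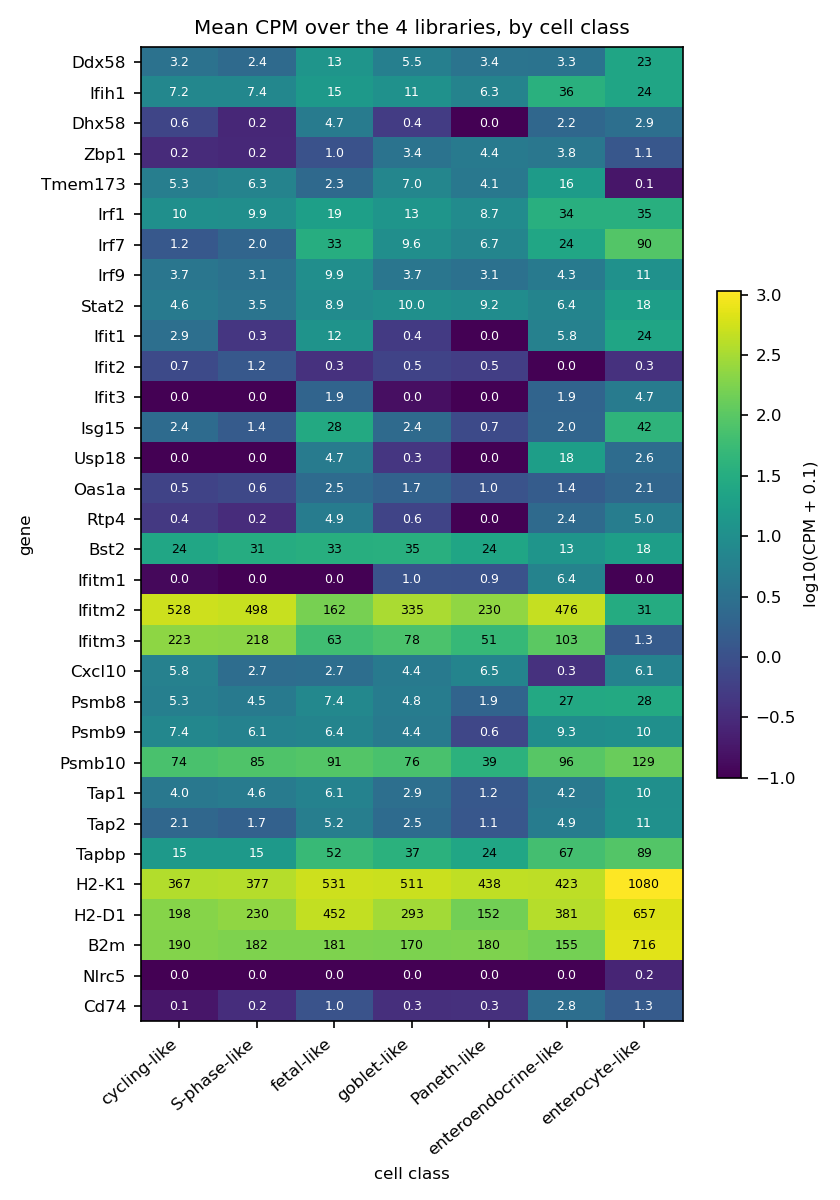
Mean CPM over the 4 libraries of each of the 32 genes (rows, grouped by role) in 7 cell classes (columns), coloured on a log10(CPM + 0.1) scale with the CPM printed in each cell. The class I chains, Irf7 and Isg15 are brightest in the enterocyte-like column, whereas Ifitm2, Ifitm3 and Tmem173 are darkest there.

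The members did not follow a single pattern across the epithelium. In all 4 libraries 21 of the 32 were higher in enterocyte-like than in cycling-like cells, 3 were higher in cycling-like cells, and 8 did neither. Classes come from clustering of the same cells, so these levels are given as a description. The class I heavy chain H2-K1 was at 882, 1327, 951 and 1159 CPM in enterocyte-like cells of controls 1 and 2 and knockouts 1 and 2, against 366, 355, 383 and 364 CPM in cycling-like cells. H2-D1, the second classical heavy chain, was at 509, 895, 495 and 728 CPM in enterocyte-like cells and at 183, 205, 198 and 204 CPM in cycling-like cells. B2m, the light chain that both need, was at 714, 875, 766 and 508 CPM in enterocyte-like cells and at 206, 187, 212 and 154 CPM in cycling-like cells. None of these enterocyte-like values overlapped the cycling-like ones, and the mean was 2.94 times as high for H2-K1, 3.32 for H2-D1 and 3.77 for B2m.

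Irf7, the master regulator of type I interferon production, differed more. It was at 60.3, 132, 72.0 and 95.3 CPM in enterocyte-like cells, a mean of 89.9 against 1.18 CPM in cycling-like cells, 76.0 times as high. Isg15, a ubiquitin-like protein that is attached to other proteins during an interferon response, had means of 42.4 CPM in enterocyte-like, 27.7 in fetal-like and 2.43 in cycling-like cells. Ifit1, which binds foreign RNA, was at means of 23.8, 11.6 and 2.90 CPM in the same classes, and Tapbp (tapasin) at 89.4, 52.0 and 14.6 CPM. Cells with fewer than 5000 UMIs were left out, and each other cell was thinned to 5000 UMIs. This kept 707 of 991 enterocyte-like and 992 of 1089 cycling-like cells. Of the cells kept, 34.9% of the enterocyte-like ones held an Irf7 UMI, against 0.605% of the cycling-like ones. Before thinning, the median depth over all cells of the class was 9265 UMIs in enterocyte-like and 27656 in cycling-like cells.

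Ifitm2 and Ifitm3, membrane proteins that block virus entry, were distributed the other way. Ifitm3 had 7439 UMIs in cycling-like cells (mean 223 CPM) and 15 in enterocyte-like cells (mean 1.32 CPM), and Ifitm2 had 16746 (528 CPM) and 374 (30.7 CPM). Tmem173 had 178 UMIs in cycling-like cells and 1 in enterocyte-like cells, and its highest mean was 16.3 CPM in enteroendocrine-like cells. Usp18, the enzyme that removes ISG15 from proteins, had 0 UMIs in the cycling-like, S-phase-like and Paneth-like classes, while enteroendocrine-like cells were at 19.6, 12.2, 20 and 20.3 CPM on only 18, 4, 14 and 18 UMIs. A Tmem173 UMI was found in 1 of 991 enterocyte-like cells and in 146 of 1089 cycling-like cells.

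The main comparison asked which members differ between knockout and control when all retained cells of a library are summed. With the group as the only term, edgeR's quasi-likelihood test called 0 of 13246 genes and 0 of 31 members at adjusted p under 0.05 (4 members had an unadjusted p under 0.05, 1138 genes in all). DESeq2 called 1 member, Tmem173, under that design. With the library number as a block, which sets each knockout against the control of its number, edgeR called 12 of the 31 (38.7%), against 11.9% of all genes tested. Of these 3 were higher (4.10% of all genes were) and 9 lower (7.78%). "Rose" and "fell" below refer to this blocked test, which leaves 1 residual degree of freedom and takes much of its spread from other genes. DESeq2 with the block called 5 members, Tmem173, Irf7, Psmb8, Tapbp and Ifitm2, against 6.58% of genes, and gave no adjusted p for 8. The median log2 fold change was -0.43 over the members and -0.01 over all genes. In the blocked edgeR fit 23 of the 31 members tested had a log2 fold change below 0 and 8 above, against 51.8% of all genes below.

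**Figure D2:**
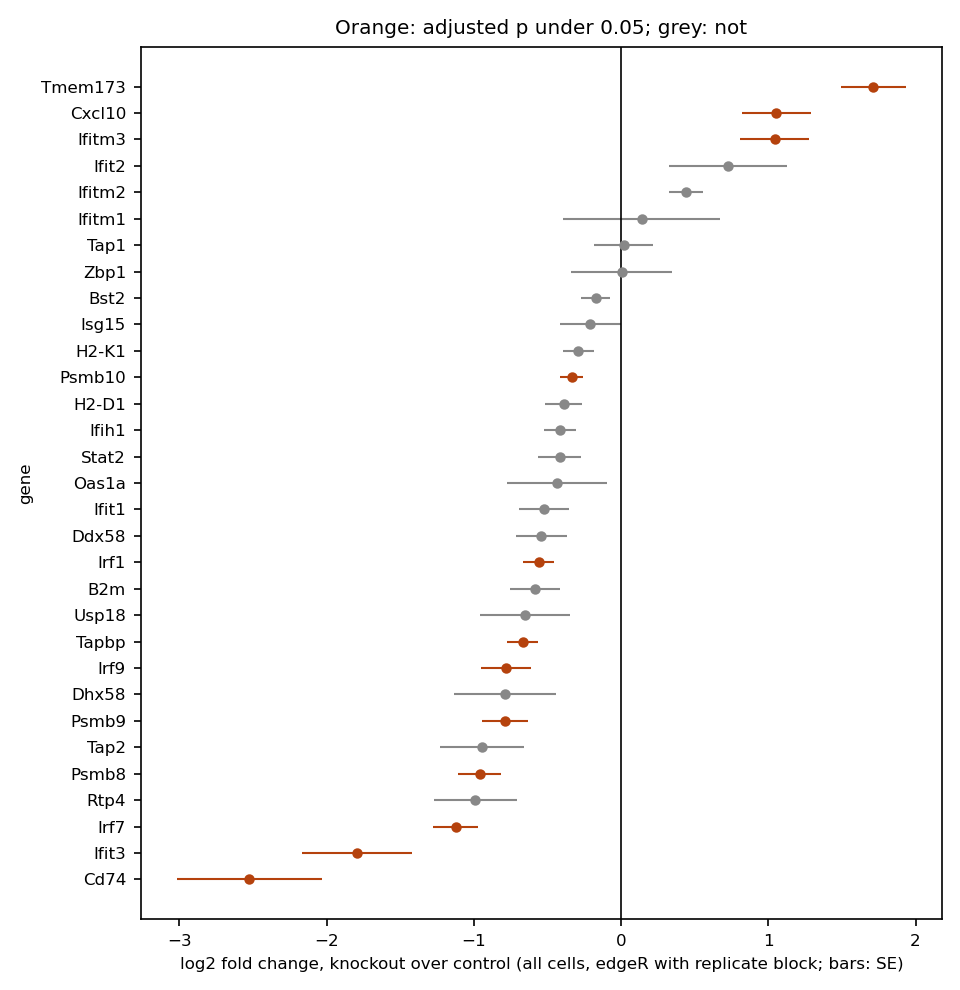
Log2 fold change of knockout over control in all cells for the 31 members tested, ordered by size, from edgeR with the library number as a block (n = 2 libraries per group). Points are estimates and bars their SE; the 12 orange points passed adjusted p 0.05, from Cd74 at -2.52 to Tmem173 at 1.71.

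Of the sensors, Tmem173 stood out as the member that was higher in the knockouts. Its STING protein is the adaptor through which cytosolic DNA induces interferon. It had 83 and 41 UMIs in controls 1 and 2 (3.04 and 1.87 CPM) and 230 and 282 in knockouts 1 and 2 (8.28 and 8.18 CPM). Both knockouts lay above both controls (as for 4 members in all and 18.2% of genes, while 11 members and 17.2% of genes lay below), and Tmem173 rose by 1.71 ± 0.22 (log2, SE; edgeR with block, adjusted p = 0.00999). The 4 other sensors, the RNA sensors Ddx58, Ifih1 and Dhx58 and the Z-form nucleic acid sensor Zbp1, did not pass, with log2 fold changes from -0.79 to 0.00. Ifih1, with most UMIs of these, was at 11.5 and 14.8 CPM in the controls and 8.74 and 11.5 CPM in the knockouts, so the groups overlapped.

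Of the 4 transcription factors 3 fell and none rose. Irf7 had 337 and 913 UMIs in the controls (12.4 and 41.7 CPM), against 201 and 571 in the knockouts (7.23 and 16.6 CPM). Control 2 was far above the others and knockout 2 lay above control 1, so the groups overlapped, while each knockout was below its own control and Irf7 fell by 1.12 ± 0.15 (log2, SE; edgeR with block, adjusted p = 0.0116). With the group alone and control 2 left out, its log2 fold change was -0.03 and that of Irf1 -0.06. Irf1, which acts downstream of interferon gamma, was at 13.3 and 22.5 CPM in the controls and 8.96 and 16.2 CPM in the knockouts, and fell by 0.56 ± 0.11 (adjusted p = 0.0290). Irf9, the DNA-binding partner of STAT2, was at 5.28 and 7.36 CPM in the controls and 3.17 and 4.38 CPM in the knockouts without overlap, and fell by 0.78 ± 0.17 (adjusted p = 0.0389). Stat2 was at 7.19 and 9.56 CPM against 6.08 and 6.73 CPM and did not pass (adjusted p = 0.111).

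Among the 11 effectors 1 rose, 1 fell and 9 did not pass. Ifitm3 had 4208 and 1146 UMIs in the controls (154 and 52.4 CPM), against 6346 and 5566 in the knockouts (228 and 161 CPM). Knockout 2 and control 1 were close, and the lowest value was that of control 2. It rose by 1.04 ± 0.23 (log2, SE; edgeR with block, adjusted p = 0.0421), and was at 0.33 with the group alone and without control 2. Ifitm2 was at 406 and 232 CPM in the controls and 494 and 371 CPM in the knockouts, with a log2 fold change of 0.44 ± 0.12 that did not pass with edgeR (adjusted p = 0.0599). Ifit3, which stabilises IFIT1, fell by 1.80 ± 0.37 (adjusted p = 0.0353), on 12 and 68 UMIs in the controls against 3 and 33 in the knockouts. A single cell of control 2 held 55 of the 68. When the cell with most UMIs of Ifit3, of Ifit1 and of Cxcl10 was left out of every library, Ifit3 did not pass (-0.71 ± 0.59, edgeR with block, adjusted p = 0.455), and the 11 other members still did. Its sign turned with the group alone and without control 2 (log2 fold change 0.33).

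Isg15 was at 5.32 and 14.4 CPM in the controls and at 3.35 and 16.2 CPM in the knockouts, so number 2 was high in both groups (log2 fold change -0.21 ± 0.21, adjusted p = 0.541). Bst2 (tetherin), which holds budding viruses at the cell surface, was at 25.3 and 30.6 CPM against 21.4 and 30 CPM. Ifit1 was at 4.73 and 7.73 CPM against 3.13 and 5.91 CPM. Ifit2 was at 0.660 and 0.366 CPM in the controls and 1.01 and 0.725 CPM in the knockouts, on 79 UMIs in all, without overlap (0.72 ± 0.40, adjusted p = 0.273). Usp18, Oas1a, Rtp4 and Ifitm1 were as sparse, and these 5 had 39 to 186 UMIs each over the 4 libraries. Summed over 15 sensors and effectors including Cxcl10, Irf7 and Stat2, the libraries held 80.8 and 147 CPM in the controls and 65.2 and 109 CPM in the knockouts.

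Cxcl10 encodes the chemokine that draws CXCR3-bearing T cells and is a classical target of interferon gamma. It had 55 and 91 UMIs in the controls (2.02 and 4.16 CPM), against 159 and 239 in the knockouts (5.72 and 6.93 CPM). Both knockouts exceeded both controls, and it rose by 1.05 ± 0.23 (log2, SE; edgeR with block, adjusted p = 0.0416). A single cell of knockout 1 held 62 of its 159 UMIs, and without that cell knockout 1 was at 3.50 CPM, below control 2. Without the cell with most Cxcl10 UMIs in every library, the levels were 1.80 and 2.70 CPM in the controls and 3.50 and 6.12 CPM in the knockouts, and the test without the top cells still passed (1.09 ± 0.21, adjusted p = 0.0263). Few cells carried it, 2.09% and 2.93% of the cells of the controls and 2.95% and 4.10% of those of the knockouts.

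All 3 immunoproteasome subunits fell. Psmb8, the inducible beta-5i subunit, had 234 and 326 UMIs in the controls (8.58 and 14.9 CPM), against 145 and 240 in the knockouts (5.22 and 6.96 CPM), and fell by 0.96 ± 0.15 (log2, SE; edgeR with block, adjusted p = 0.0163). Psmb9, the beta-1i subunit, was at 7.52 and 10.0 CPM in the controls and 5.07 and 5.28 CPM in the knockouts, and fell by 0.79 ± 0.16 (adjusted p = 0.0320). Psmb10, the beta-2i subunit, was at 83.3 and 102 CPM in the controls and 71.9 and 78.7 CPM in the knockouts, and fell by 0.34 ± 0.08 (adjusted p = 0.0488). For each of the 3, both knockouts were below both controls. Psmb9 and Tap1 are neighbours on chromosome 17 that run in opposite directions. Their 5′ ends overlap in the GENCODE annotation (Psmb9, on the minus strand, starts at 34187764 and Tap1, on the plus strand, at 34187553). Reads in the overlap could thus be counted for either.

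Of the peptide loading genes only Tapbp passed. It had 847 and 1147 UMIs in the controls (31.1 and 52.4 CPM), against 633 and 1038 in the knockouts (22.8 and 30.1 CPM), and fell by 0.67 ± 0.11 (log2, SE; edgeR with block, adjusted p = 0.0198). With the group alone and without control 2 it was at -0.22. Tap2 was at 3.23 and 6.35 CPM against 2.48 and 2.44 CPM and Tap1 at 3.89 and 6.13 CPM against 4.93 and 5.31 CPM. The groups of Tap2 did not overlap, those of Tap1 did, and neither passed (adjusted p = 0.0815 and 0.964). The class I chains did not pass either. H2-K1 was at 465 and 658 CPM in the controls and 438 and 494 CPM in the knockouts (-0.29 ± 0.11, adjusted p = 0.123), and H2-D1 at 254 and 456 CPM against 234 and 305 CPM (-0.39 ± 0.12, adjusted p = 0.0905). B2m was at 273 and 333 CPM in the controls and 241 and 177 CPM in the knockouts, the only chain without overlap (-0.59 ± 0.17, adjusted p = 0.0733). Nlrc5, the activator of class I genes, had 1, 2, 0 and 0 UMIs and was not tested. Cd74 had 13 and 31 UMIs in the controls against 2 and 9 in the knockouts, close to the limit of counting, with a log2 fold change of -2.52 ± 0.49 (adjusted p = 0.0299).

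**Figure D3:**
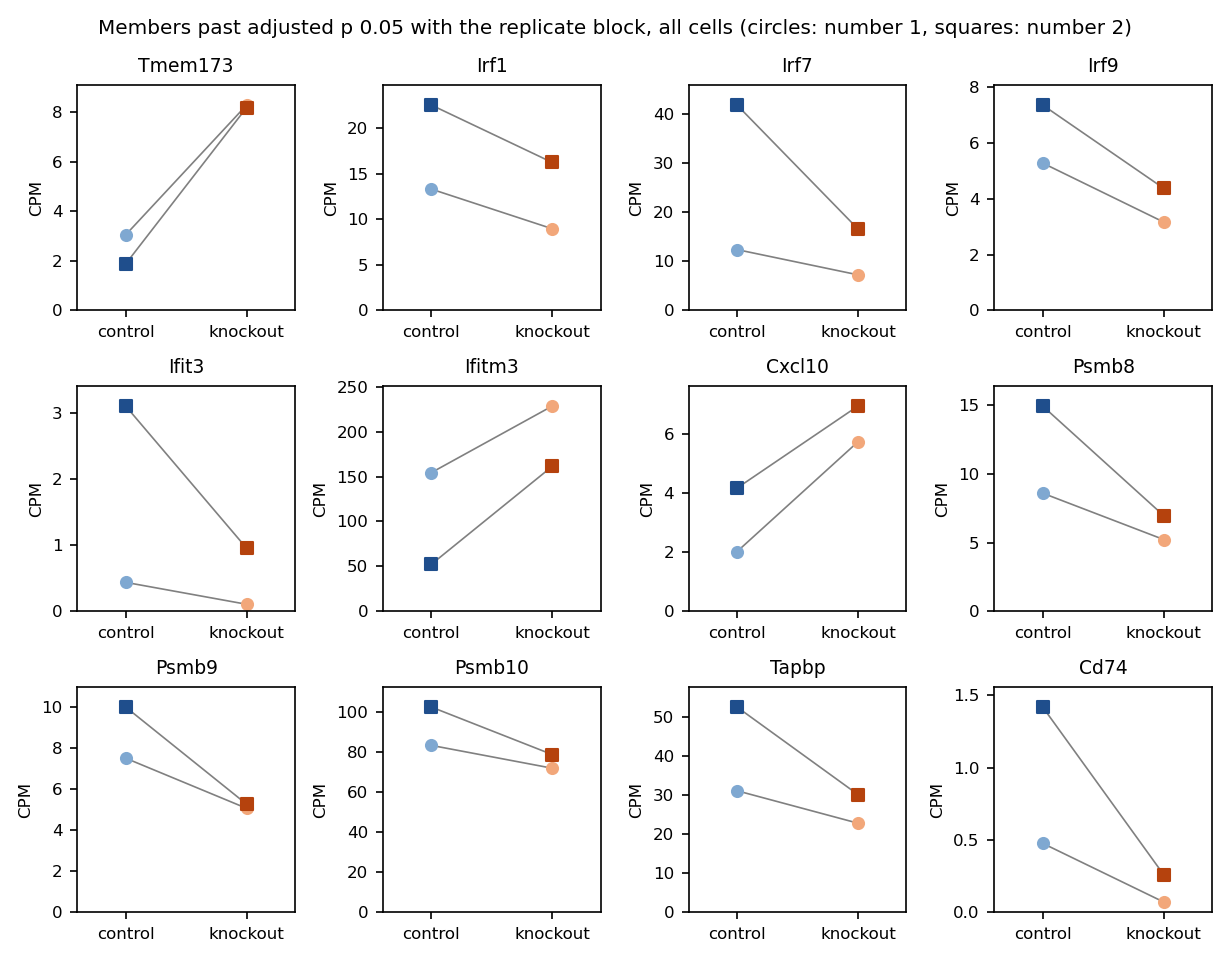
CPM of the 12 members that passed adjusted p 0.05 with the block, in control (left) and knockout (right) libraries summed over all cells; circles are number 1, squares number 2, and grey lines join libraries of the same number. Every line goes down except those of Tmem173, Ifitm3 and Cxcl10, and control 2 is the highest library in each of the 9 that go down.

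Enterocyte-like cells held a lower share of UMIs in the knockouts (5.80% and 9.85%) than in the controls (13.7% and 23.5%). Of the 3 that rose, Tmem173 and Ifitm3 were nearly undetected in enterocyte-like cells, and Cxcl10 had similar means there and in cycling-like cells (6.10 and 5.76 CPM). Of the 9 that fell, Irf1, Irf7, Irf9, Psmb8, Psmb10 and Tapbp were higher in enterocyte-like than in cycling-like cells in all 4 libraries. Ifit3 and Cd74 were higher there in 3 libraries, and Psmb9 in 2 (means 10.1 and 7.38 CPM). In sums over a library, fewer cells of a type and less RNA per cell cannot be told apart. Each class was therefore also given the share of UMIs that it had on average in the controls, and log2(CPM + 1) was tested with limma and the block. Under fixed shares 1 member passed, Tmem173 (1.02% of all genes did), against 12 members and 16.6% of genes in the same test of the sums as they were. Irf7 moved from -0.99 to -0.18 on the log2 scale, and its values became 17.4 and 32.8 CPM in the controls and 18.1 and 24.3 CPM in the knockouts. Irf1 moved from -0.49 to -0.14 and Tapbp from -0.61 to -0.21, whereas Psmb9 stayed at -0.59 (-0.65 before; limma adjusted p = 0.0876). Cxcl10 was at 0.90 (0.89 before) and Ifitm3 at 0.82 (1.08 before), both with a limma adjusted p of 0.0755. Tmem173 remained at 2.54 and 2.12 CPM in the controls and 6.80 and 7.15 CPM in the knockouts, a log2 fold change of 1.26 ± 0.14 (limma adjusted p = 0.0235).

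**Figure D4:**
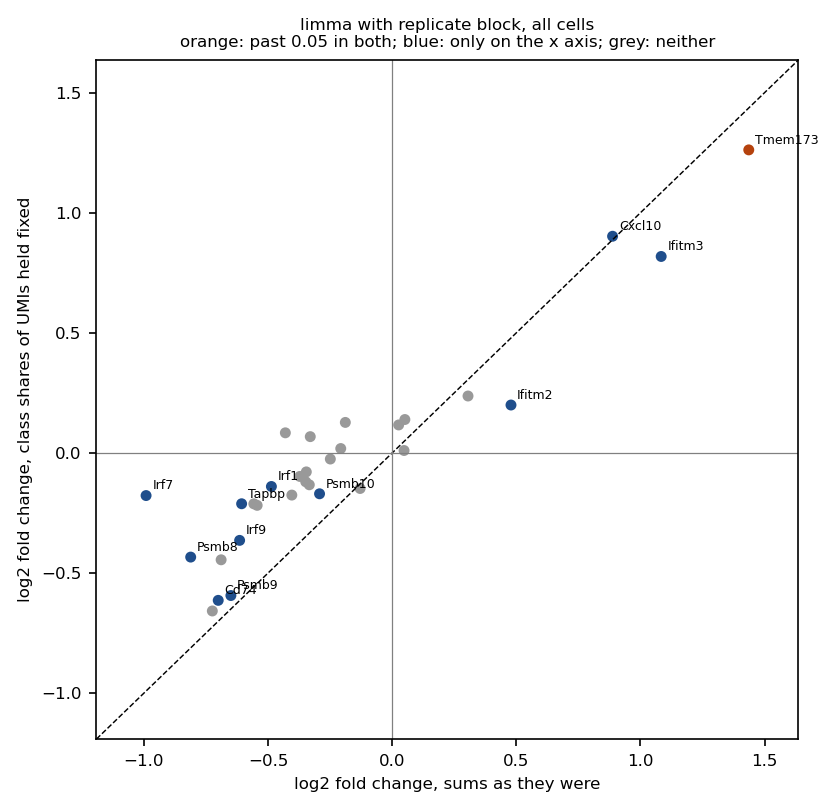
Log2 fold change (knockout over control, limma on log2(CPM + 1) with block) of the 31 members tested in sums over all cells (x axis) against the same with each class held at its mean share of UMIs in the controls (y axis); the dashed line marks equal values. Irf7, Irf1 and Tapbp lie well above the line toward 0, Cxcl10 and Psmb9 lie near it, and only Tmem173 (orange) passed on both axes.

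Within cycling-like cells, of which every library had 70 to 461, the group alone called 0 of 21 members (35 of 10938 genes, 0.320%; 7 members had an unadjusted p under 0.05). With the block edgeR called 8, against 9.90% of all genes. Tmem173, Ifit1, Ifitm3 and Cxcl10 rose (5.02% of genes did) and Irf1, Bst2, Psmb9 and Psmb10 fell (4.88%). Ifitm3 was at 217 and 128 CPM in the controls and 254 and 293 CPM in the knockouts, without overlap (0.60 ± 0.09, edgeR with block, adjusted p = 4.37e-08). Cxcl10 was at 3.24 and 3.49 CPM in the controls and 9.47 and 6.84 CPM in the knockouts (1.34 ± 0.28, adjusted p = 0.000240). Tmem173 was at 3.14 and 2.33 CPM against 7.40 and 8.33 CPM (1.38 ± 0.29, adjusted p = 0.000314). All 3 were higher in both knockouts than in both controls, as were 20.6% of all genes in this class. Without the top cells of Ifit1, Ifit3 and Cxcl10, Ifitm3 and Tmem173 passed and Cxcl10 did not (1.17 ± 0.39, adjusted p = 0.0724): 62 of its 105 UMIs in knockout 1 were in 1 cell.

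Ifit1 in cycling-like cells rests on few molecules, 25 and 0 UMIs in the controls against 62 and 24 in the knockouts (1.53 ± 0.38, edgeR with block, adjusted p = 0.00303). These 111 UMIs lay in 11 of 1089 cells, and the 24 of knockout 2 in 1 cell. Control 2 held none. With the group alone and 1 library left out, the log2 fold change ran from 0.92 (without control 2) to 8.06 (without control 1), and without the top cells Ifit1 had too few UMIs to be tested. Irf1 was at 10.0 and 15.7 CPM in the controls and 5.95 and 9.22 CPM in the knockouts (-0.79 ± 0.20, adjusted p = 0.00507), and Psmb9 at 10.3 and 8.43 CPM against 5.59 and 5.20 CPM (-0.85 ± 0.23, adjusted p = 0.00896). Bst2 was at 25 and 32.0 CPM against 18.9 and 21.3 CPM (-0.51 ± 0.13, adjusted p = 0.00416). For these 3 the knockouts lay below the controls without overlap, as did 15.2% of all genes, and for Psmb10 they overlapped (71.9 and 89.2 CPM against 59.9 and 73.8 CPM, -0.30 ± 0.08, adjusted p = 0.0119). The class I chains were level in this class, with H2-K1 at 366 and 355 CPM in the controls and 383 and 364 CPM in the knockouts (0.02 ± 0.07). DESeq2 with the block called 0 of the 21, with no adjusted p for 15 (0.923% of genes called, and 2 members at an unadjusted p under 0.05). The class joins clusters 3, 8 and 12. Cluster 3 held 45.2% and 47.1% of it in controls 1 and 2 and 47.3% and 62.0% in knockouts 1 and 2. Cluster 12 held 31.5%, 21.4%, 29.9% and 14.0% in that order. The part of this balance in the edgeR calls was not tested.

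S-phase-like cells numbered 90 to 468 per library. The group alone called 0 of 20 members and 0 of 10680 genes with edgeR (1 member and 681 genes had an unadjusted p under 0.05), and the block called 2, both higher, against 5.01% of all genes (1.96% higher and 3.05% lower). Tmem173 was at 3.75 and 1.68 CPM in the controls and 9.30 and 10.5 CPM in the knockouts, and rose by 1.81 ± 0.32 (log2, SE; edgeR with block, adjusted p = 0.000279). Ifitm3 was at 234 and 102 CPM against 315 and 223 CPM, with control 1 above knockout 2 (0.70 ± 0.11, adjusted p = 5.55e-05), and its log2 fold change was 0.16 with the group alone and without control 2. DESeq2 with the block called 0 of the 20 and gave no adjusted p for 14 (0.300% of genes, 2 members at an unadjusted p under 0.05). Libraries differed in the cells that make up the class: cluster 2 held most of number 1 and cluster 4, led by the serine synthesis genes Psph and Phgdh and by Slc7a11, most of number 2.

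Goblet-like cells numbered 98 to 297 per library. The group alone called 0 of 21 members (3 of 10264 genes, 0.0292%; 4 members at an unadjusted p under 0.05), and the block called 5, against 16.7% of all genes (9.25% higher and 7.44% lower). Tmem173 was at 3.86 and 4.29 CPM in the controls and 11.9 and 8.08 CPM in the knockouts (1.23 ± 0.34, edgeR with block, adjusted p = 0.00430), and Ifitm3 at 88.2 and 40.4 CPM against 108 and 74.9 CPM (0.47 ± 0.12, adjusted p = 0.00141). Both rose, but Ifitm3 was at 0.0019 with the group alone and without control 2. B2m was at 198 and 181 CPM in the controls and 177 and 125 CPM in the knockouts and fell by 0.42 ± 0.10 (adjusted p = 0.000795). Tapbp (39.5 and 46.8 CPM against 30.5 and 33.0 CPM, adjusted p = 0.00862) and Irf7 (10.7 and 12.9 CPM against 9.15 and 5.56 CPM, adjusted p = 0.0382) fell as well. The class joins 2 clusters whose balance differed by group: cluster 13 held 43.2% and 21.4% of the class in the controls but 58.9% and 56.2% in the knockouts. Its part in these calls was not tested. With the block and no filter on low counts edgeR called 0 members (2.46% of genes passed, and 7 members had an unadjusted p under 0.05). In cluster 13 alone, which expresses the early secretory genes Atoh1 and Dll1, 1 member passed (B2m, adjusted p = 0.0116; 5.67% of genes) and Irf7 had a log2 fold change of 0.10 in place of -0.78. In cluster 15 alone, led by the mature goblet genes Zg16 and Clca1, 1 member passed (Ifitm2, 0.46 ± 0.12, adjusted p = 0.0313; 1.65% of genes). DESeq2 with the block called 0 of the 21 and gave no adjusted p for 13 (1.67% of genes, 2 members at an unadjusted p under 0.05).

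Enterocyte-like cells numbered 200 to 290 per library. The group alone called 0 of 24 members and 0 of 9808 genes with edgeR (0 members and 186 genes had an unadjusted p under 0.05). With the block 2 members were called, against 2.05% of genes (1.17% higher and 0.877% lower). Both knockouts lay above both controls for 1 member (9.33% of genes) and below them for 6 (13.1%). Ifitm2 had 127 and 47 UMIs in the controls (33.9 and 9.16 CPM), against 64 and 136 in the knockouts (39.7 and 40 CPM), and rose by 1.16 ± 0.22 (edgeR with block, adjusted p = 2.17e-05). Control 2 stood far below the other 3 libraries, and without it the group alone gave 0.31. Ifit3 had 10 and 68 UMIs in the controls against 0 and 10 in the knockouts, and fell by 2.26 ± 0.50 (adjusted p = 0.000762). A single cell of control 2 held 55 of the 68, and without the top cells Ifit3 had too few UMIs to be tested. With the group alone its log2 fold change ran from -7.87 (without knockout 2) to -0.43 (without control 2). The class I chains overlapped between groups, as did Irf7 (60.3 and 132 CPM against 72.0 and 95.3 CPM, -0.12 ± 0.18) and Irf1 (28.6 and 40.9 CPM against 26.7 and 43.3 CPM, 0.05 ± 0.20). Clusters 0, 1 and 6 make up the class, and number 2 drew mostly on cluster 0. In cluster 0 alone no member passed (0.661% of genes did; Ifit3 adjusted p = 0.0517, and 6 members at an unadjusted p under 0.05). DESeq2 with the block called 0 of the 24 and gave no adjusted p for 4 (0.194% of genes, 1 member at an unadjusted p under 0.05).

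In Paneth-like cells (31 to 123 per library) 10 members could be tested and 0 passed with edgeR under either design, where 2 of 6537 genes (0.0306%, with 0.0153% higher and 0.0153% lower) passed with the block, 1 (0.0153%, lower) with the group alone, and 3 members had an unadjusted p under 0.05. DESeq2 called 0 members there under both designs. Cxcl10 was at 0 and 4.21 CPM in the controls and 11.2 and 10.4 CPM in the knockouts, on 0, 4, 12 and 21 UMIs (adjusted p = 0.371 with the block). Enteroendocrine-like cells (11 to 85 per library) gave 13 members to test, and edgeR called 0 with the block (0.471% of genes, 0.169% higher and 0.302% lower; 0 members at an unadjusted p under 0.05) and 0 with the group alone (1 member at an unadjusted p under 0.05). DESeq2 called 0 there too. Tmem173 was at 10.9 and 9.12 CPM in the controls and 21.5 and 23.7 CPM in the knockouts of this class, without overlap, as for 19.4% of genes (1.03 ± 0.56, adjusted p = 0.923).

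**Figure D5:**
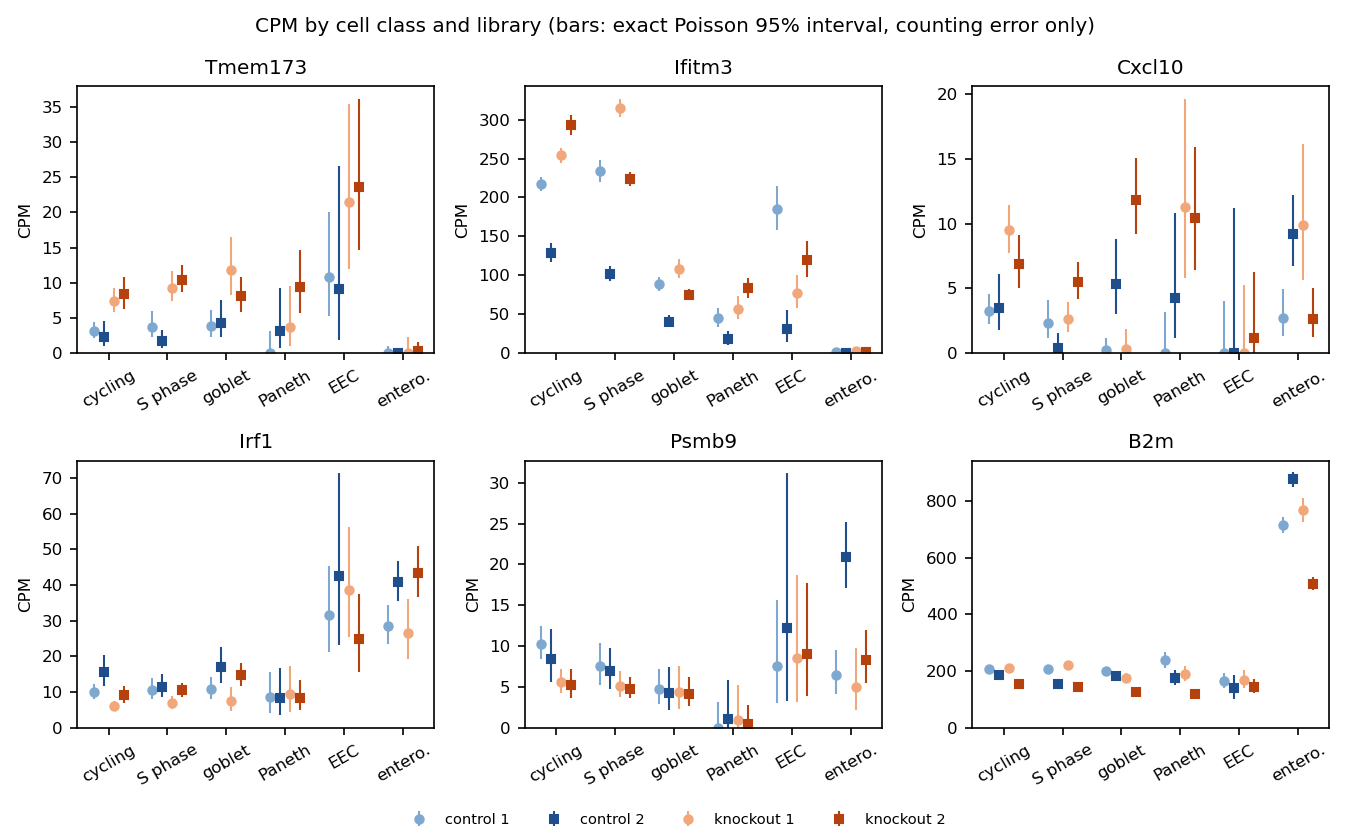
CPM of Tmem173, Ifitm3, Cxcl10, Irf1, Psmb9 and B2m in 6 cell classes (x axis; EEC, enteroendocrine-like; entero., enterocyte-like), 1 point per library, with exact Poisson 95% intervals for counting error only. Orange points (knockout) sit above blue ones (control) for Tmem173 in the cycling, S phase, goblet, Paneth and EEC columns, and enterocyte-like cells are near 0 for it.

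Whether the difference between knockout and control was itself different between enterocyte-like and cycling-like cells was tested directly, with the library as a block. No difference passed in 11172 genes, 26 of them members (edgeR; 322 genes and 2 members, Irf1 and Ifitm2, had an unadjusted p under 0.05). Irf1 differed by 0.77 ± 0.31 and Ifitm2 by 1.07 ± 0.46 on the log2 scale, higher in enterocyte-like cells, both at an adjusted p of 1. Differences seen in 1 of these classes are thus not shown to be unlike those in the other.

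Other genes of the pathway were read from lists. The interferons themselves were almost absent, with 10 UMIs in all for 21 genes of types I, II and III, and 0 for Ifnb1, Ifng, Ifnl2 and Ifnl3. Of 17 receptor and JAK-STAT genes 3 fell and 0 rose in all cells (edgeR with block), where 7.78% of all genes fell and 4.10% rose. They were Jak2, a kinase of the interferon gamma receptor (-0.54 ± 0.12), Ifngr2, a chain of that receptor (-0.48 ± 0.11), and Il10rb, a chain of the type III receptor (-0.43 ± 0.10). In cycling-like cells 1 of 17 rose and 0 fell (5.02% and 4.88% of genes), and in S-phase-like cells 1 of 17 rose and 1 fell (1.96% and 3.05%). In goblet-like cells 1 of 15 rose and 3 fell (9.25% and 7.44%). Among 19 sensing adaptors, kinases and IRFs 5 fell and 0 rose in all cells. Those that fell included Ikbke, a kinase that activates IRFs (-0.68 ± 0.11), and Ticam1, an adaptor of TLR3 (-0.54 ± 0.12). Of 18 tested in each class, 1 fell in cycling-like, 1 in S-phase-like and 3 in goblet-like cells (4.88%, 3.05% and 7.44% of genes), and 0 rose.

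Of 45 other interferon-stimulated genes tested in all cells 7 fell and 0 rose with the block (7.78% of all genes fell and 4.10% rose), among them Ifi27 (-0.82 ± 0.12), Parp12 (-0.81 ± 0.15), Tdrd7 (-0.56 ± 0.11) and Parp14 (-0.97 ± 0.19). In enterocyte-like cells 2 of the 36 tested from this list rose and 0 fell (1.17% and 0.877% of genes there). They were Oasl1 (1.21 ± 0.17) and Samd9l (0.88 ± 0.19). In goblet-like cells 0 of 27 rose and 3 fell (9.25% and 7.44% of genes), among them Oasl1 (-0.69 ± 0.25). Whether the change of Oasl1 differed between these 2 classes was not tested. Of 13 other class I and class I-like genes tested in all cells 6 fell and 0 rose. H2-Q2 was at 46.0 and 103 CPM in the controls and 21.7 and 32.9 CPM in the knockouts (-1.42 ± 0.14, edgeR with block, adjusted p = 0.00473). H2-Q1 (-1.53 ± 0.18), Fcgrt, the neonatal Fc receptor (-1.28 ± 0.20), and H2-T22 (-0.53 ± 0.10) fell too. Single classes were mixed for these class I genes. In cycling-like cells 1 of 10 rose and 1 fell (5.02% and 4.88% of genes), and in enterocyte-like cells also 1 of 10 and 1 (1.17% and 0.877%). In goblet-like cells 2 of 7 rose and 2 fell (9.25% and 7.44%), and in S-phase-like cells 0 of 9 rose and 1 fell (1.96% and 3.05%). Of 14 genes of the constitutive proteasome and class I loading 0 passed in all cells, and their median log2 fold change was 0.13. Psmb5, the constitutive subunit that Psmb8 replaces, was at 353 and 398 CPM in the controls and 405 and 462 CPM in the knockouts (adjusted p = 0.225), and Calr, the loading chaperone calreticulin, at 675 and 614 CPM against 753 and 703 CPM. Within classes, some of which join clusters in differing balance, some of this list rose with the block and none fell. Of all genes tested, 5.02% rose in cycling-like, 1.96% in S-phase-like and 9.25% in goblet-like cells. Calr rose in cycling-like (0.36 ± 0.07) and S-phase-like cells (0.36 ± 0.08), Pdia3, another loading chaperone, in cycling-like cells (0.21 ± 0.07), and the proteasome subunits Psmb2 (0.39 ± 0.10), Psmb5 (0.27 ± 0.10) and Psmb6 (0.33 ± 0.10) in goblet-like cells. Of 4 class II genes tested Ctss, the protease cathepsin S, fell (-0.92 ± 0.18, adjusted p = 0.0298). Within enterocyte-like cells no list had more than 2 genes that rose or more than 1 that fell, and with the group alone no listed gene passed in any class.

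The share of cells with a UMI gave a further reading of the members. After each cell was thinned to 5000 UMIs, 13 of the 32 members had a lower share in both knockouts than in both controls (18.9% of all genes did) and 4 a higher one (20.6%). Without thinning these were 20 and 4, against 49.5% and 4.54% of all genes, where depth per cell was lower in both knockouts. Tmem173 was found in 1.57% and 1.04% of thinned cells of the controls and in 3.93% and 3.22% of those of the knockouts, and in 6.18%, 5.72%, 11.2% and 12.7% of cells before thinning. Psmb8 was found in 4.91% and 8.67% of thinned control cells and 2.67% and 3.85% of thinned knockout cells. The share of thinned cells with an Ifitm3 UMI was 26.3% and 11.3% in the controls, against 37.9% and 30.2% in the knockouts.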

How the data were processed

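Deposited values were whole-number UMI counts per gene and cell barcode, made by the authors with Cell Ranger 3.0.1 and mm10 per the submitters' processing notes, and written by software version 3.0.0 per the file headers. The annotation release and strand setting are not given in the sources used here. The feature list holds no mitochondrial genes. The protocol loaded 7000 cells per channel for a mean recovery of 1200, and 22139560 to 35592468 UMIs were deposited per library.

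Barcodes with at least 500 genes were kept (173 left out), and 70 were removed as likely doublets (the highest Scrublet scores, 0.8% per 1000 barcodes; the automatic threshold marked 18). This left 5359 of 5602 barcodes, and libraries shared 2 barcode sequences. Cells were clustered with scanpy 1.11.5 (2000 variable genes less 28 members and pathway genes, 30 components, 15 neighbours, Leiden resolution 1), giving 18 clusters. They were named by marker scores of at least 0.5 with at least 3 detected markers. These limits were set after the data were seen, and 4 clusters with a median depth under 0.333 of their library's were not named without their own leading markers. Counts were summed per library and class where every library had at least 10 cells. No stem-like class formed, so the S-phase-like class was tested in its place, a choice made after seeing the data.

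Sums were tested with edgeR 4.0.16 in R 4.3.3 (TMM, filterByExpr, quasi-likelihood test, two-sided, Benjamini-Hochberg adjusted over all genes tested, threshold 0.05), with the group as the only term. A second fit added the library number as a block. The titles give only numbers. They were read as pairing libraries by mouse because the deposited names of same-numbered libraries share a tag and the crypts came from 2 mice, and deviations of same-numbered libraries from their group means correlated at 0.729 over all cells and at 0.0571 (enteroendocrine-like) to 0.560 within the named classes. Further alternatives were DESeq2 1.42.0, no filter, other clustering genes, thinned cells, each library left out, the cells with most Ifit1, Ifit3 and Cxcl10 UMIs left out (added after seeing the data), and limma 3.58.1 on log2(CPM + 1) with fixed class shares. Of 200 simulated changed genes edgeR recovered 98.5% in all cells (13087 genes) and 86% in enterocyte-like cells (9636 genes), or 84.5% there with the block, and made 20 false calls in all cells (18 with the block) and 6 in enterocyte-like cells (9 with the block). The simulated counts had the same set spread for every gene and no difference by library number, unlike the libraries here. Changed genes were drawn from well counted ones only. The recovered shares and false calls thus do not measure power or error in these data. Chi-square per degree of freedom was 93.5 between the controls and 64.9 between the knockouts, so no library repeats another. Intervals (Poisson or Clopper-Pearson, 95%) cover counting error only. Nothing says that the cultures of a mouse were handled separately, so p-values measure the spread between these libraries.

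Values in every library were given for members past the threshold in any test, members of at least 100 CPM on average, and 1 or 2 others of each role; other pathway genes came from lists. Members and lists were chosen with earlier results of these data known. Near-identical copies (H2-K1, H2-D1 and the H2-Q genes, the Ifitm genes, Ifit3 with Ifit3b, Oas1a with Oas1g) and the overlapping Psmb9 and Tap1 are uncertain, since reads can be split between them. Summed markers of other cell types were at 0.504 to 1.01 CPM (mesenchymal), 4.43 to 11.0 (endothelial), 1.22 to 2.46 (glial) and 0 (erythroid).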

Additional observations from a re-analysis of the deposited data

How the results depend on the processing

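With edgeR, the number of members called in all cells was 0 with the group alone and 12 with the replicate block (11.9% of all genes). These 12 edgeR calls thus rest on the pairing of same-numbered libraries, which is read from the deposited names. With that block and other choices the number was 15 without a filter (12.7% of all genes) and 13 without the low-depth clusters (15.3%). It was 11 of 23 tested after cells under 5000 UMIs were left out and the others thinned to that depth (15.6%). Without the top cells of Ifit1, Ifit3 and Cxcl10 it was 11 (12.1%, Ifit3 did not pass). DESeq2 gave 5 (6.58%), limma 12 (16.6%) and limma with fixed class shares 1 (1.02%), all with the block. DESeq2 with the group alone called 1, Tmem173 (0.989% of genes). In cycling-like cells the group alone called 0 (0.320% of genes), the block 8 (9.90%), no filter 4 (2%) and no filter with the block 8 (5.94%). Clustering on all variable genes with the block called 7 there (11.2%). The block without the top cells called 6 (7.70%, not Ifit1 and Cxcl10). In S-phase-like cells the group alone called 0 (0% of genes), the block 2 (5.01%) and no filter 2 (1.36%). No filter with the block called 3 there (4.08%), and the other clustering with the block 3 (2.95%). In enterocyte-like cells the block called 2 (2.05% of genes) and no filter with the block 3 (1.22%). The other clustering called 2 (2.17%) and the block without the top cells 2 (2.04%), both Ifitm2 and Isg15, without Ifit3. In goblet-like cells the block called 5 (16.7% of genes), no filter 2 (3.20%) and no filter with the block 0 (2.46%). The other clustering called 4 (14.0%), cluster 13 alone 1 (5.67%) and cluster 15 alone 1 (1.65%). In Paneth-like cells no filter called 1 (0.292% of genes), and 2 with the block (0.765%). Enteroendocrine-like cells gave 0 in each of these. The cause of these shifts was not tested.

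Leaving out 1 library at a time, with the group alone, called 0 members in all cells, 0 to 4 in cycling-like, 0 to 1 in enterocyte-like, 0 to 2 in Paneth-like and 0 in S-phase-like, goblet-like and enteroendocrine-like cells. The lone library of a group is then assumed to vary like the other group. The log2 fold changes of H2-D1 (-0.82 to 0.10), H2-K1 (-0.57 to 0.01) and Ifit3 (-4.08 to 0.33) in all cells turned positive without control 2, at 0.0954, 0.0104 and 0.3317. Others were smallest without control 2: Irf7 (-2.01 to -0.03), Irf1 (-1.10 to -0.06), Tapbp (-1.05 to -0.22), Ifitm3 (0.33 to 1.82) and Ifitm2 (0.09 to 0.82) in all cells, and Ifitm3 in goblet-like (0.0019 to 1.06) and S-phase-like cells (0.16 to 1.31). Cd74 ran from -3.72 (without knockout 2) to -1.44 (without control 2). That of Irf7 in goblet-like cells was 0.0972 in cluster 13 alone. For 33 gene results, 411 alternatives were set against the edgeR fit with the group alone, in which no member passed. Of these, 263 kept the direction and also did not pass (a missing adjusted p counted as not passing). Another 144 kept the direction and passed, and 4 reversed. The 263 are thus not support for the calls with the block.

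Members with a lower share of cells in both knockouts numbered 13 at 5000 UMIs, 9 at 2500 and 20 without thinning, against 18.9%, 16.8% and 49.5% of all genes. Thinning left out the cells with fewer UMIs than the set number. Depth per cell was lower in both knockouts. The stem-like test was not run. With 2 libraries per group and a block, 1 residual degree of freedom remains, and counts of calls should not be compared between classes. Members with few UMIs were often below the filter, so a missing call there was limited by depth.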

Other observations

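Detection of interferon-stimulated genes was concentrated in some cells. Over a list of 15 members (Ifit1, Ifit2, Ifit3, Isg15, Irf7, Usp18, Rtp4, Oas1a, Zbp1, Dhx58, Ddx58, Ifih1, Cxcl10, Bst2 and Stat2), 36.2% and 17.4% of the cells of controls 1 and 2 and 49.5% and 39.0% of those of knockouts 1 and 2 held no UMI of any. Cells with at least 5 of the 15 made up 2.09%, 7.92%, 0.615% and 2.42% in that order. The 1% of cells with most of these UMIs held at least 15.2% of them in every library. Depth per cell was lower in the knockouts, and its part in these shares was not tested.

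The fetal-like class was led by Clu, Anxa1, Ly6d and Ly6a. It had 15, 78, 33 and 185 cells in controls 1 and 2 and knockouts 1 and 2. It was not tested, though every library met the limit on cell numbers. Ifitm3 was at 2.09, 12.9, 167 and 67.9 CPM there, with both knockouts above both controls (as for 15.9% of genes). The value of control 1 rests on very few molecules, since its 15 cells held 478412 UMIs of all genes. The class joins clusters 5 and 9, and cluster 9 held 60.0% and 44.9% of it in the controls but 78.8% and 61.6% in the knockouts. The part of this balance in the Ifitm3 levels was not tested. Isg15 was at 35.5, 17.3, 4.46 and 53.3 CPM on 17, 70, 2 and 194 UMIs, with no order by group.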
